A study of Mus musculus with 12 samples.

Results

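The 10 mitochondrially encoded mRNAs described here were mt-Nd1, mt-Nd2, mt-Nd4, mt-Nd5, mt-Nd6, mt-Co1, mt-Co2, mt-Co3, mt-Cytb and mt-Atp6. They were chosen by name, as the rows of the deposited count table whose identifiers map to these symbols, and no measured value entered that choice. They are 10 of 56691 genes in the table, which lists 27 further genes of the mitochondrial genome. Mouse oocytes of 2 genotypes, WT and Alkbh5 knockout (KO), were sequenced at 3 stages with 2 libraries per group, 12 libraries in all. The germinal vesicle (GV) stage is that of arrested, full-grown oocytes, GVBD is the breakdown of the germinal vesicle when meiosis resumes, and MII is the arrest at metaphase of the second division. According to the study's methods, the KO is a total deletion of the first exon of Alkbh5, which encodes an RNA demethylase, so every cell of the animal lacks it. Both genotypes came from young PMSG-primed females on a C57BL/6 background, and GV oocytes were released from the inhibitor milrinone and cultured in M16. Samples were taken by time in culture, and the study describes most KO oocytes as failing to resume or complete the first division. The KO libraries labelled GVBD and MII could thus contain less advanced oocytes, and genotype and attained stage cannot be told apart there. Each library was made from a small pool of oocytes, and p-values here measure only the spread between such pools.

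Mitochondria keep a small circular genome whose protein-coding genes all specify core subunits of the respiratory chain and of ATP synthase. It is transcribed from both strands into long precursors, and most mRNAs are released by cutting out the tRNAs that lie between them and are then given a short poly(A) tail. The oocyte holds more mitochondria than almost any other cell and passes them to the embryo, and its nuclear genome is silent during meiotic maturation.

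By role, mt-Nd1, mt-Nd2, mt-Nd4, mt-Nd5 and mt-Nd6 encode membrane subunits of complex I, the NADH dehydrogenase. mt-Cytb encodes cytochrome b of complex III. mt-Co1, mt-Co2 and mt-Co3 encode the catalytic core of complex IV, cytochrome c oxidase, and mt-Atp6 encodes a proton-channel subunit of complex V, ATP synthase. In GENCODE M21 on GRCm38, 9 of the 10 lie on the plus strand, between mt-Nd1 at chrM:2751-3707 and mt-Cytb at chrM:14145-15288. Only mt-Nd6, at chrM:13552-14070, lies on the minus strand. The 3 members of complex IV lie at chrM:5328-6872 (mt-Co1), chrM:7013-7696 (mt-Co2) and chrM:8607-9390 (mt-Co3), and mt-Atp6 lies between the latter pair at chrM:7927-8607. The other members of complex I lie at chrM:3914-4951 (mt-Nd2), chrM:10167-11544 (mt-Nd4) and chrM:11742-13565 (mt-Nd5). None of the mRNAs is interrupted by an intron, and neighbours abut or overlap. mt-Atp6 shares 43 bases with the upstream gene mt-Atp8.

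The ends of the mRNAs show how tightly this genome is packed. The last 30 bases are shown for 4 members because they differ in how the stop codon is written, with the stop letters in capitals.
mt-Nd1: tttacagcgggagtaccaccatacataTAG
mt-Co1: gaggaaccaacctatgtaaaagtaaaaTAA
mt-Co3: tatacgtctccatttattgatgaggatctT
mt-Cytb: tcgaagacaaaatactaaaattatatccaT
A complete stop codon was annotated for 7 members. mt-Nd4, mt-Co3 and mt-Cytb ended in a single T, which the poly(A) tail completes to a stop codon. These sequences are the GENCODE M21 transcripts on GRCm38, as are those that follow.

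mt-Nd5 and mt-Nd6 are read from opposite strands and overlap by 14 bases at their ends. The last 44 bases of each are shown because reads over the overlap can be assigned to one gene or the other only with strand information, and the overlap is in capitals.
mt-Nd5: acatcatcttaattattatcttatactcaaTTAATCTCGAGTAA
mt-Nd6: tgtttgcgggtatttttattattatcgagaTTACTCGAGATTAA
The first lies at chrM:13522-13565 on the plus strand and the second at chrM:13552-13595 on the minus strand. mt-Nd6 also differs in composition, with 28.1% G and 5.97% C, whereas G ranged from 8.00% (mt-Nd2) to 16.1% (mt-Co1) in the other members. How strand was used in counting is not given in the sources used here.

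A stretch of mitochondrial DNA is also present in the nuclear genome, on chromosome 1, where the annotation lists 7 unprocessed pseudogenes between 24611535 and 24616197. The beginning of mt-Atp6 and of its copy Gm10925 is shown because mt-Atp6 shares its sequence with this copy. It is also the only member called below without leaving out a library or changing the scaling.
mt-Atp6: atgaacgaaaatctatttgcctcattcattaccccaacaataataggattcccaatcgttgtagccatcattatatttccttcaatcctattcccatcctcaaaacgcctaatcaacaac
Gm10925: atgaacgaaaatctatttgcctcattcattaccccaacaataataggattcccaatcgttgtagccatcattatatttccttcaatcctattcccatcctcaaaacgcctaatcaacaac
The first lies at chrM:7927-8046 on the plus strand and the second at chr1:24614532-24614651 on the minus strand. The pair had 0 mismatches over 678 aligned bases. mt-Co2 and Gm28661 (681 bases), mt-Co3 and Gm28437 (783 bases), and mt-Nd4 and Gm28439 (876 of the 1378 bases of mt-Nd4) also had 0 mismatches. mt-Co1 and Gm29216 differed at 1 of 483 aligned bases. Of all stretches of 150 bases, the length of a read, 99.8% in mt-Co3, 99.4% in mt-Co2, 99.4% in mt-Atp6, 59.2% in mt-Nd4 and 23.6% in mt-Co1 were present unchanged in the copy. mt-Nd1, mt-Nd2, mt-Nd5, mt-Nd6 and mt-Cytb had no copy among these 7. Nuclear genes other than these 7 also shared exact stretches of 50 bases with members. They were Gm13339 for mt-Nd2, Gm11407 and Gm4076 for mt-Nd5, Gm11512 and Gm13340 for mt-Co1, Gm13341 for mt-Co2 and AC124578.3 for mt-Atp6. Their part in the counts was not tested.

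Library totals ranged from 28.6 to 40.2 in units of 1e6 counts, of which 221927 to 838409 fell on the ERCC spike-in, a set of synthetic RNAs added to each tube. Alkbh5 received 5355 to 10181 counts in WT libraries and 54 to 143 in KO libraries, which fits the labels. All 10 oocyte markers examined, among them Zp3 and Gdf9, were above 0 in every library, at a summed 9219 to 16950 per 1e6 counts. Markers of the surrounding cumulus and granulosa cells summed to 40.0 to 87.7 per 1e6 counts, highest in KO MII replicate 2, with 7 to 11 of 12 above 0. Their part in the values of the mitochondrial mRNAs was not tested.

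The 10 mRNAs together made up under 1% of endogenous counts in every library. Their share was 0.409% and 0.703% among WT libraries at GV, 0.644% with 0.494% at GVBD, then 0.906% with 0.867% at MII. In KO it was 0.653% and 0.394% (GV), 0.303% with 0.636% (GVBD), then 0.324% with 0.768% (MII). Both WT MII libraries thus had a higher share than any other library, whereas the KO MII libraries lay 2.37-fold apart and overlapped with KO GV. The group means were 0.886% ± 0.0271 (SD, n = 2) in WT MII and 0.546% ± 0.314 in KO MII. The widest 95% Wilson interval of a single library was ± 0.00308 percentage points, so counting error was negligible beside the differences between replicates. Intervals of this kind cover counting error only, since PCR reads without molecular identifiers are not independent molecules.

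Relative to the spike-in, the picture at MII was another one. Counts of the 10 mRNAs per ERCC count were 0.429 and 0.695 among WT libraries at GV, 0.724 with 0.372 at GVBD, then 0.663 with 0.408 at MII. In KO they were 0.834 and 0.438 (GV), 0.366 with 0.626 (GVBD), then 0.285 with 0.420 (MII). The WT means of 0.562, 0.548 and 0.536 lay close together, but replicates of one group differed by 1.48-fold (KO MII) to 1.95-fold (WT GVBD). In KO MII the mean was 0.352 ± 0.0958 (SD, n = 2), with both libraries below both KO GV libraries. How many oocytes a tube held enters this ratio as well as the RNA of each oocyte, and in a pooled sample fewer cells and less RNA per cell cannot be told apart.

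**Figure D1:**
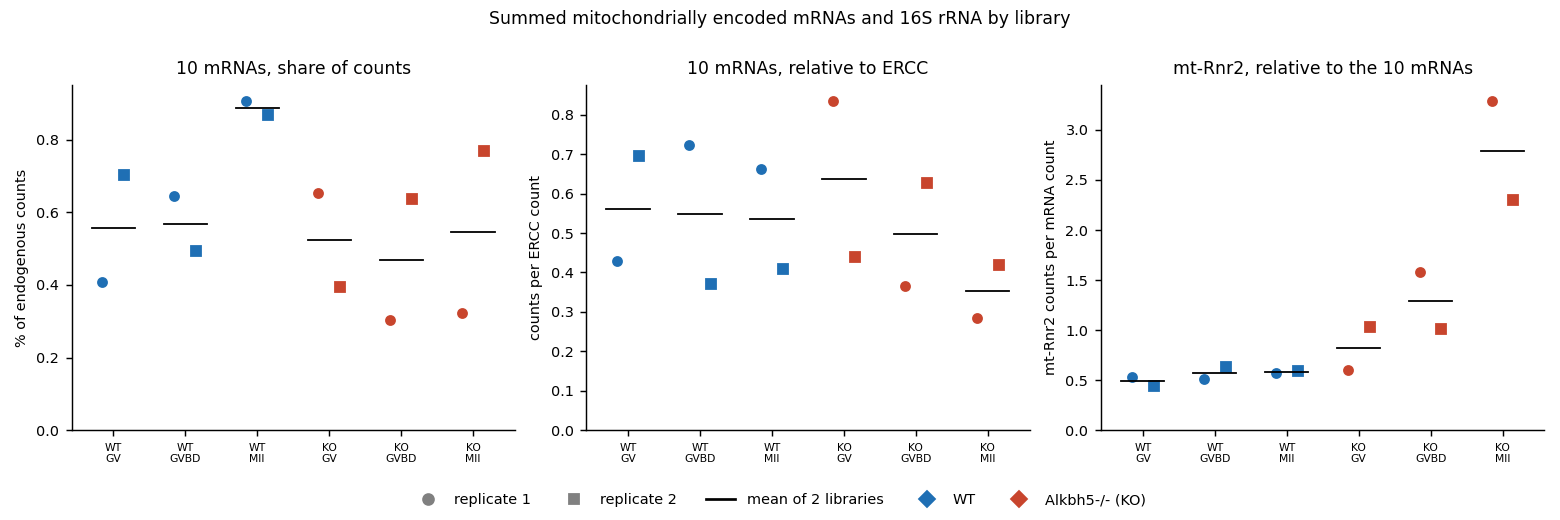
Each point is 1 library (circles replicate 1, squares replicate 2; WT blue, KO red) and each line the mean of 2, for the 10 mRNAs as % of endogenous counts (left) and per ERCC count (middle), and for mt-Rnr2 counts per count of the 10 mRNAs (right). The share was 0.867% to 0.906% in WT MII and 0.324% to 0.768% in KO MII, while mt-Rnr2 per mRNA count was 0.445 to 0.630 in WT and 2.30 to 3.29 in KO MII.

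The members of complex I were examined one by one. mt-Nd1 received 7836 and 12701 counts among WT libraries at GV, 15217 with 12244 at GVBD, then 21462 with 22885 at MII. In KO it received 16685 and 11050 counts (GV), 7596 with 21507 (GVBD), then 6862 with 19296 (MII). Scaled to the spike-in, mt-Nd1 was lowest in KO MII replicate 1 (17.0 counts per 1000 ERCC counts) and highest in KO GV replicate 1 (75.2), and WT and KO overlapped at each stage.

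For mt-Nd2 the counts were 8355 and 11255 among WT libraries at GV, 12435 with 8612 at GVBD, then 17905 with 18855 at MII. The KO counts of mt-Nd2 were 14049 and 9649 (GV), 4112 with 15474 (GVBD), then 4960 with 14025 (MII). The libraries again ranged from KO MII replicate 1 (12.3 per 1000 ERCC counts) to KO GV replicate 1 (63.3).

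mt-Nd4 received 5272 and 10404 counts among WT libraries at GV, 11744 with 9568 at GVBD, then 14662 with 14132 at MII. Its KO libraries held 10530 and 7553 counts (GV), 4062 with 14285 (GVBD), then 4222 with 8529 (MII). On the spike-in scale both KO MII libraries (10.5 and 15.1 per 1000 ERCC counts) lay below both WT MII libraries (28.9 and 16.9), by a small margin for the nearest pair.

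mt-Nd5 received 5145 and 7774 counts among WT libraries at GV, 8916 with 7279 at GVBD, then 11172 with 10343 at MII. Among KO libraries it had 7519 and 6102 counts (GV), 3018 with 11421 (GVBD), then 3415 with 6521 (MII). It followed mt-Nd4 closely over the 12 libraries (Pearson r = 0.99 of log2 spike-in scaled values, shared libraries and depth), and KO MII (8.46 and 11.6 per 1000 ERCC counts) again lay just below WT MII (22.1 and 12.3).

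mt-Nd6, the member on the other strand, received 830 and 1892 counts among WT libraries at GV, 2141 with 2141 at GVBD, then 2568 with 2584 at MII. In KO it received 1502 and 1218 counts (GV), 646 with 2645 (GVBD), then 670 with 1467 (MII). It was the least counted of the 10 in 8 of 12 libraries, with mt-Atp6 the least counted in the other 4. It made up 0.57% to 1.26% of their summed counts, and it varied with the plus-strand members mt-Nd4 (r = 0.97) and mt-Nd5 (r = 0.95).

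mt-Cytb, the only member of complex III, received 43781 and 55307 counts among WT libraries at GV, 53504 with 36896 at GVBD, then 95550 with 106855 at MII. Its KO libraries held 32449 and 32294 counts (GV), 19127 with 51814 (GVBD), then 29454 with 53971 (MII). Scaled to the spike-in, mt-Cytb was 189 and 127 per 1000 ERCC counts in WT MII, against 73.0 and 95.7 in KO MII, groups that did not overlap. At GV it was 129 and 193 in WT and 146 and 102 in KO, which overlapped.

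In complex IV, mt-Co1 received 31642 and 51121 counts among WT libraries at GV, 63747 with 48809 at GVBD, then 59196 with 78874 at MII. Among KO libraries it had 52760 and 37717 counts (GV), 21014 with 64749 (GVBD), then 28090 with 62761 (MII). mt-Co1 and mt-Cytb were the most counted pair in every library, with a mean of 25.3% and 24.7% of the summed counts.

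mt-Co2 received 20669 and 22000 counts among WT libraries at GV, 25051 with 22413 at GVBD, then 45242 with 47326 at MII. In KO it received 19834 and 16472 counts (GV), 16951 with 22178 (GVBD), then 16376 with 39369 (MII). Genotypes overlapped at each stage on the spike-in scale (WT MII 89.3 and 56.4, KO MII 40.6 and 69.8 per 1000 ERCC counts).

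mt-Co3 received 20816 and 24929 counts among WT libraries at GV, 22866 with 20408 at GVBD, then 35150 with 36070 at MII. Its KO libraries held 15222 and 14097 counts (GV), 12835 with 22796 (GVBD), then 20235 with 29660 (MII). It varied least among the members on the spike-in scale in KO MII, where the libraries had 50.1 and 52.6 per 1000 ERCC counts, and it lay within the WT MII pair (69.4 and 43.0). The ratio of mt-Co3 to its copy Gm28437 differed between these KO libraries, at 1.99 in replicate 1 and 1.02 in replicate 2. Summed with the copy they had 75.4 and 104 per 1000 ERCC counts.

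mt-Atp6, of complex V, stood apart from the other members. It received 1605 and 1866 counts among WT libraries at GV, 2478 with 1355 at GVBD, then 33208 with 3849 at MII. Among KO libraries it had 14531 and 2713 counts (GV), 679 with 2840 (GVBD), then 603 with 1348 (MII). WT MII replicate 1 and KO GV replicate 1, at 65.6 and 65.5 per 1000 ERCC counts, were far above the other 10 libraries, which had 1.49 to 8.57.

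**Figure D2:**
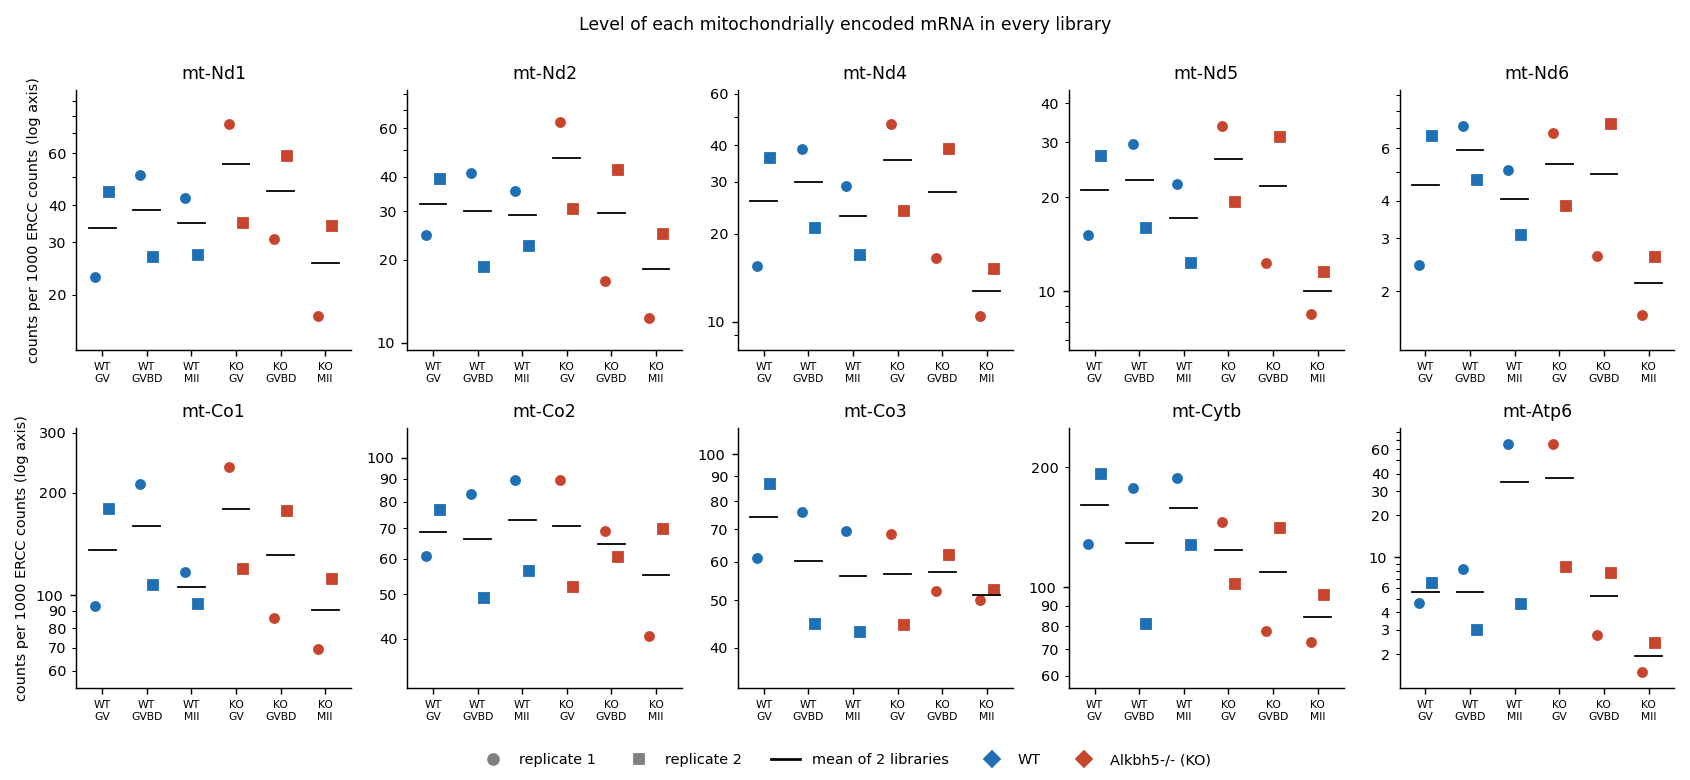
Counts per 1000 ERCC counts (log axis, one panel per mRNA with its own range) are plotted for each library, circles for replicate 1 and squares for replicate 2, with the mean of 2 as a line. In 9 panels replicates spread about as far as the groups differ, and in the panel of mt-Atp6 a WT MII and a KO GV library at 65.6 and 65.5 lie far above the others.

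Per kilobase, the mean level over the 12 libraries was highest for mt-Cytb, at 112 counts per 1000 ERCC counts and kb, followed by mt-Co2 (97.1), mt-Co1 (86.3) and mt-Co3 (75.6). A lower tier held mt-Nd1 (40.5), mt-Nd2 (29.8), mt-Atp6 (22.1), mt-Nd4 (18.7), mt-Nd5 (10.9) and mt-Nd6 (8.62). The place of mt-Atp6, which ranged from 2.19 to 96.3, leaves out the counts of its identical copy Gm10925. Those exceeded its own in most libraries, so its rank is not settled. Ranges over the libraries overlapped for each pair of neighbours in this order, for example 63.8 to 169 for mt-Cytb against 59.3 to 131 for mt-Co2. mt-Co3 (54.9 to 111) and mt-Nd5 (4.64 to 18.6) did not overlap. The mean levels per kb of complex III and IV members thus all exceeded those of the complex I members, although the counts of mt-Co2, mt-Co3, mt-Nd4 and mt-Atp6 are shared with nuclear copies to an unknown extent.

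KO was then compared with WT at each stage with edgeR's quasi-likelihood test on spike-in scaled libraries. A gene was called at a Benjamini-Hochberg adjusted p below 0.05, over all genes tested, and an absolute log2 fold change of at least 1. At GV none of the 10 mRNAs was called, with 0.0977% of all 19452 tested genes called, and their median log2 fold change was 0.36, as was that of all genes. The members' median at GV depended on single libraries, at -0.16 without KO GV replicate 1 (all genes 0.16), -0.03 without WT GV replicate 1 (0.35), 0.75 without KO GV replicate 2 (0.49) and 0.94 without WT GV replicate 2 (0.44). At GVBD none was called either (background 2.54%), and the medians were -0.08 for the members and 0.23 for all genes. In these comparisons 1 member at GV (mt-Atp6) and 0 members at GVBD had an unadjusted p below 0.05 by edgeR. Over all genes these were 3475 of 19452 at GV and 2901 of 19462 at GVBD. DESeq2 called none of the 10 at either stage.

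At MII all 10 log2 fold changes of KO against WT were negative, with a median of -0.71 against 0.30 over all genes. One member was called lower, mt-Atp6, beside a background of 0.302% of genes called lower. Of the others, mt-Nd6 (-0.94 ± 0.84, SE), mt-Cytb (-0.91 ± 0.61), mt-Nd4 (-0.84 ± 0.74), mt-Nd5 (-0.78 ± 0.75) and mt-Nd2 (-0.64 ± 0.72) had the larger differences, of the order of their errors. mt-Nd1 (-0.44 ± 0.70), mt-Co2 (-0.40 ± 0.65), mt-Co1 (-0.22 ± 0.62) and mt-Co3 (-0.13 ± 0.66) were closer to 0. The adjusted p by edgeR was 0.96 for mt-Cytb and 1 for these other 8. Every KO library lay below every WT library for 5 members (mt-Nd4, mt-Nd5, mt-Nd6, mt-Cytb and mt-Atp6), as it did for 10.3% of all tested genes. The members are not independent of each other, since their pairwise correlations over the 12 libraries ranged from 0.50 to 0.99, so they do not count as 10 separate observations. The medians depended on single libraries. Without KO MII replicate 1 the medians were -0.40 for the members and -0.45 for all genes, and without KO MII replicate 2 -1.08 and 0.70. Without WT MII replicate 1 they were -0.29 and 0.75, and without WT MII replicate 2 -1.03 and 0.03.

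With the 3 stages combined and stage in the model, none of the 10 was called (278 of 22004 genes, 1.26%). None had an unadjusted p below 0.05 by edgeR, beside 4146 of the 22004 genes. DESeq2 called none of them either. The median of the members was -0.17, against 0.29 over all genes. mt-Cytb was the lowest at -0.51 ± 0.27 (SE; edgeR adjusted p = 0.33), followed by mt-Atp6 (-0.33 ± 1.18), mt-Nd6 (-0.32 ± 0.35) and mt-Co3 (-0.20 ± 0.23). mt-Nd5 (-0.17 ± 0.32), mt-Nd4 (-0.16 ± 0.35), mt-Co2 (-0.13 ± 0.25), mt-Nd2 (-0.04 ± 0.35) and mt-Co1 (-0.04 ± 0.30) were nearer to 0, and mt-Nd1 was at 0.16 ± 0.33.

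**Figure D3:**
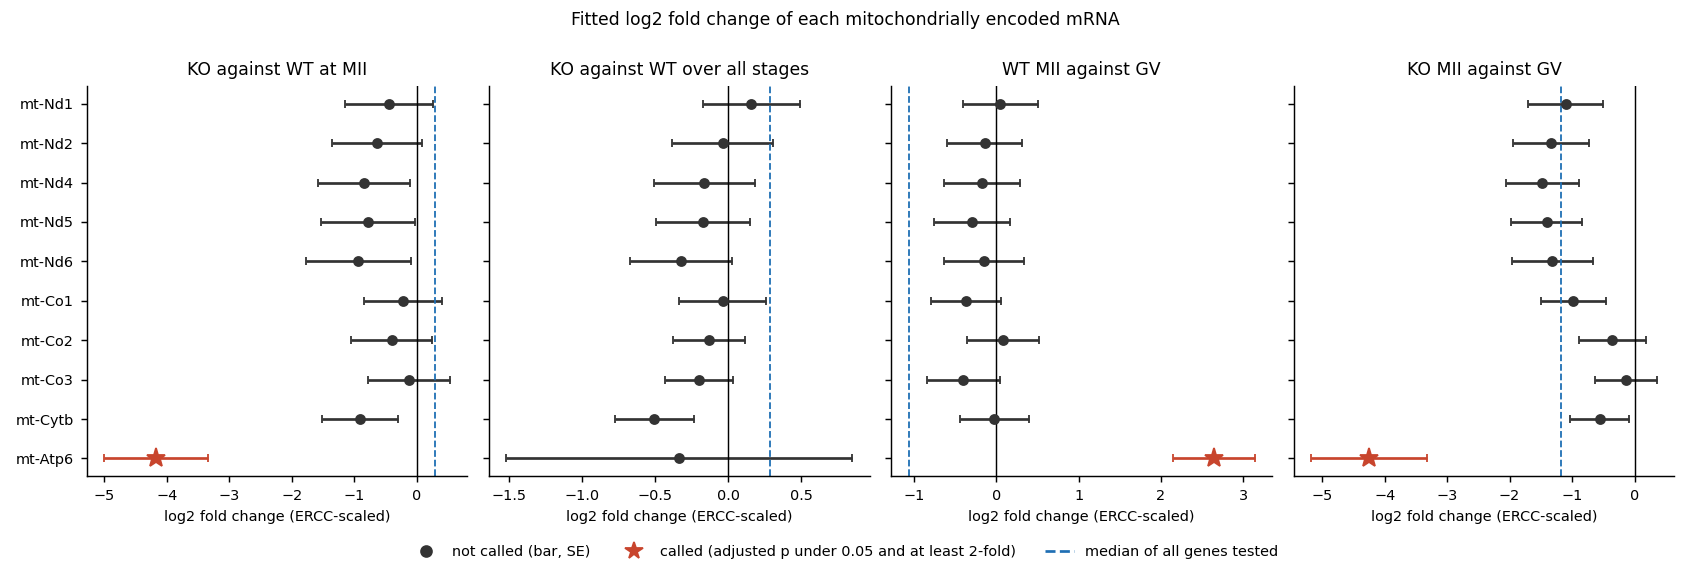
Fitted log2 fold changes of the 10 mRNAs with their SE in 4 comparisons are shown (x axes differ between panels), with called members as red stars and the median of all tested genes as a blue dashed line. The only called member is mt-Atp6, at -4.17, 2.64 and -4.25, and in WT from GV to MII the other 9 lie near 0 while the median of all genes is -1.06.

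From GV to MII, WT oocytes lost spike-in scaled RNA across the transcriptome, with 30.5% of tested genes called lower and a median log2 change of -1.06. The mitochondrial mRNAs did not share that median on this scale, at -0.15. Changes in WT were 0.08 ± 0.44 (SE) for mt-Co2, 0.05 ± 0.45 for mt-Nd1, -0.03 ± 0.42 for mt-Cytb, -0.14 ± 0.46 for mt-Nd2 and -0.15 ± 0.49 for mt-Nd6. mt-Nd4 (-0.18 ± 0.46), mt-Nd5 (-0.30 ± 0.47), mt-Co1 (-0.36 ± 0.42) and mt-Co3 (-0.40 ± 0.44) were slightly lower, all 9 with edgeR adjusted p of 0.561 or more, and the groups overlapped for each member. With TMM scaling, which centres the bulk of genes near no change, the median of all genes was -0.14, calls over all genes went from 74 higher and 5747 lower to 1593 higher and 3053 lower, and the median of the members was 0.80 with all 10 positive. Under that scaling mt-Co2 (1.01, edgeR adjusted p = 0.0113) was called higher in addition to mt-Atp6, beside 8.47% of genes called higher. With spike-in scaling mt-Atp6 was the only member called higher in WT, as described below, beside a background of 0.393%.

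In KO, the median of the members from GV to MII was -1.21 and that of all genes -1.17, a closeness that depended on single libraries. After mt-Atp6, the complex I members had the largest fitted changes, with -1.48 ± 0.58 (SE) for mt-Nd4, -1.41 ± 0.57 for mt-Nd5, -1.34 ± 0.60 for mt-Nd2, -1.32 ± 0.65 for mt-Nd6 and -1.10 ± 0.60 for mt-Nd1. mt-Co1 (-0.98 ± 0.52), mt-Cytb (-0.56 ± 0.47), mt-Co2 (-0.36 ± 0.53) and mt-Co3 (-0.14 ± 0.50) had smaller changes. None of these 9 was called (edgeR adjusted p from 0.155 to 0.89), and only mt-Atp6 was, beside 3.28% of genes called lower. Both MII libraries lay below both GV libraries for 8 of the 10 members, as for 61.4% of all tested genes. Calls in KO depended on single libraries, as did those of all genes. Without KO MII replicate 2, 7 members and 16.5% of all genes were called lower. Without KO MII replicate 1 these were 4 members and 53.9% of all genes, and without KO GV replicate 1 they were 0 members and 0.196% of all genes. The medians without KO MII replicate 1 were -0.80 for the members and -2.09 for all genes, and without KO MII replicate 2 -1.66 and -0.80. With TMM scaling 7 of the 10 changes in KO were positive, with a median of 0.25 for the members and -0.14 for all genes, and calls over all genes went from 1 higher and 615 lower to 224 higher and 727 lower.

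Whether the change between GV and MII differed between the genotypes was tested as an interaction. Its median was -1.13 for the members and -0.07 for all genes, 9 of 10 were negative, and none was called, as was no other gene (background 0%). At an unadjusted p below 0.05 edgeR gave 1197 genes, 1 member among them, mt-Atp6 (-6.90 ± 1.56, SE; adjusted p = 0.408). DESeq2 called mt-Atp6 for this difference (adjusted p = 0.0492). The gap between the medians of the members and of all genes depended on single libraries. Without KO MII replicate 1 the medians of the interaction were -0.75 for the members and -0.84 for all genes, and without KO MII replicate 2 -1.44 and 0.31. At the step from GV to GVBD none of the 10 was called in either genotype by edgeR, beside 0.0511% of genes called in WT and 0.22% in KO, nor by DESeq2. At an unadjusted p below 0.05 edgeR gave 0 members in WT, beside 1223 of 19566 genes, and 1 in KO (mt-Atp6), beside 1459 of 19064 genes. The medians at that step were 0.05 in WT and -0.29 in KO. Without KO GVBD replicate 2, 5 members were called lower in KO at GVBD, with a median of -1.04 for the members and -0.09 for all genes, of which 3.46% were called lower.

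With spike-in scaling and no library left out, mt-Atp6 was the only member called in any of these comparisons. By edgeR with Benjamini-Hochberg adjustment it was lower in KO than in WT at MII (log2 fold change -4.17 ± 0.83, SE; adjusted p = 0.000256), higher in WT MII than in WT GV (2.64 ± 0.49; adjusted p = 1.15e-06) and lower in KO MII than in KO GV (-4.25 ± 0.92; adjusted p = 0.0435). Each call was lost when certain single libraries were left out. Without WT MII replicate 1 the change in WT was -0.29 and the difference at MII was -1.24 (adjusted p = 1), and without KO GV replicate 1 the change in KO was -2.14 (adjusted p = 0.904). The call in WT was also lost without WT GV replicate 1 (2.43, adjusted p = 0.146) or replicate 2 (2.90, adjusted p = 0.0755), and that at MII without KO MII replicate 1 (-3.88, adjusted p = 0.0879). The call at MII was absent as well in a model of all 12 libraries (-4.17, adjusted p = 0.0684), with a replicate block (0.305) and with TMM scaling (0.168). DESeq2 did not call the change in WT (adjusted p = 0.19).

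The identical copy of mt-Atp6 was counted more than mt-Atp6 itself in most libraries. Gm10925 received 15398 and 20259 counts among WT libraries at GV, 18339 with 13522 at GVBD, then 37374 with 39695 at MII. In KO it received 14275 and 11856 counts (GV), 4907 with 23325 (GVBD), then 9430 with 20582 (MII). The ratio of mt-Atp6 to Gm10925 had a median of 0.113 and ranged from 0.0639 to 1.02, reaching its highest values in the same KO GV and WT MII libraries in which mt-Atp6 was high. For other members this ratio was steadier, at 0.967 to 1.32 for mt-Co2, 0.971 to 1.99 for mt-Co3, 2.84 to 3.34 for mt-Nd4 and 4.64 to 7.79 for mt-Co1. The methods state that only uniquely mapped reads were kept, yet both rows of each identical pair held large counts. With each member summed with its copy, mt-Atp6 changed by 0.59 in WT from GV to MII (adjusted p = 0.338), by -1.46 in KO (adjusted p = 0.171) and by -1.59 between KO and WT at MII (adjusted p = 0.387), and 0 of 10 members were called in any of the 9 comparisons. This summing was chosen after the values were seen. How reads were divided between the copies was not tested.

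**Figure D4:**
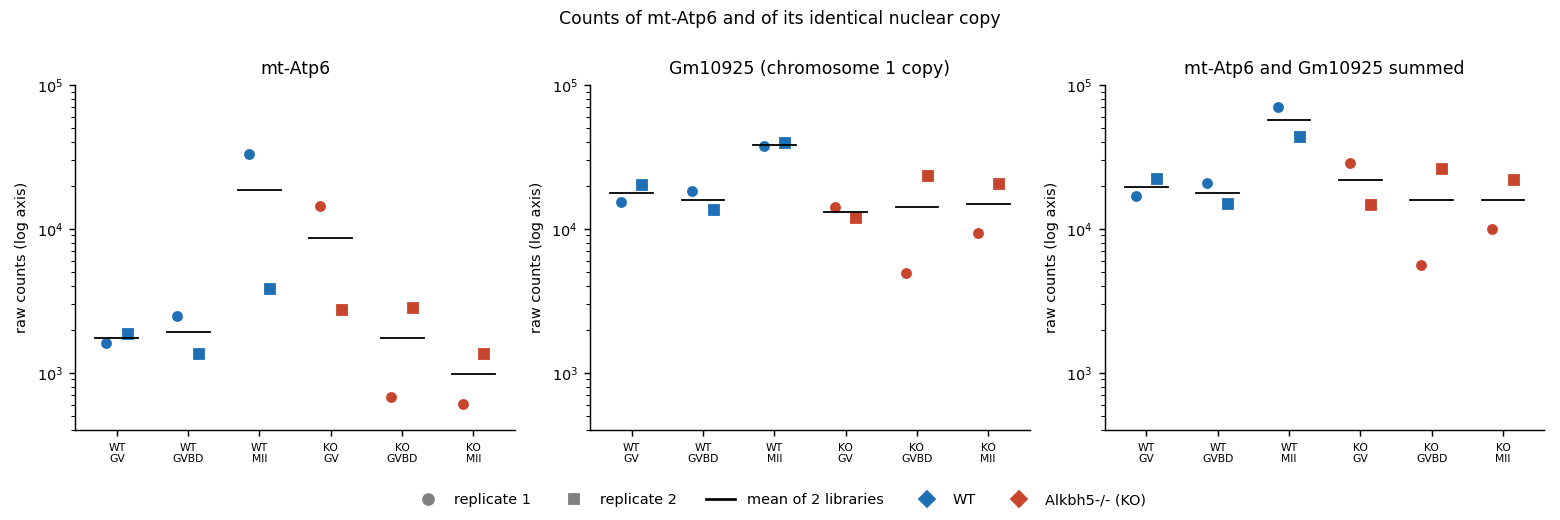
Raw counts (log axis) of mt-Atp6, of its chromosome 1 copy Gm10925 and of both summed are shown for each library, with the mean of 2 as a line. mt-Atp6 reaches 33208 in WT MII replicate 1 and 14531 in KO GV replicate 1 and stays at or below 3849 elsewhere, while Gm10925 has about equal counts in the replicates of WT MII (37374 and 39695) and of KO GV (14275 and 11856).

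The mitochondrial rRNAs are cut from the same plus-strand transcripts as most of these mRNAs and carry short tails. mt-Rnr2, the large rRNA, differed in its relation to the mRNAs between the genotypes. Counts of mt-Rnr2 per count of the 10 mRNAs were 0.527 and 0.445 in WT GV, and over the 6 WT libraries they ranged from 0.445 to 0.630. In KO they were 0.599 and 1.03 (GV), 1.58 with 1.01 (GVBD), then 3.29 with 2.30 (MII). At GVBD and MII each KO library was above every WT library, and at GV KO replicate 1 lay within the WT range of the other stages. The values of mt-Rnr2 per 1000 ERCC counts were 226 and 310 in WT GV, 377 and 242 in WT MII, 499 and 453 in KO GV, and 935 and 965 in KO MII. Summed with mt-Rnr1, the small rRNA, counts per ERCC count were 0.259 and 0.363 in WT GV and 0.421 and 0.270 in WT MII. In KO these sums were 0.580 and 0.508 (GV), then 0.993 and 1.03 (MII). mt-Rnr1 is not described singly, so the differences given are those of mt-Rnr2 only. Over all stages mt-Rnr2 was called higher in KO, by 1.15 ± 0.23 (SE; edgeR adjusted p = 0.0308), beside 0.9% of genes called higher. At MII its log2 fold change was 1.62 ± 0.51 (adjusted p = 0.118). The call over all stages was lost without 9 of the 12 libraries taken singly, at log2 fold changes that stayed between 1.02 and 1.26, and with TMM scaling the difference fell under the fold minimum (0.96, adjusted p = 0.0468). The interaction for mt-Rnr2 was not called (0.79 ± 0.52, SE; adjusted p = 1). In a library of polyadenylated RNA, the amount of an rRNA and the length of its tail cannot be told apart.

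Of the 22 mitochondrial tRNAs, 2 were called higher in WT from GV to MII, beside 0.393% of all genes. They were mt-Tf (3.07 ± 0.84, SE; edgeR adjusted p = 0.00159) and mt-Ti (1.98 ± 0.79; adjusted p = 0.0415). Their counts in WT GV were low, at 12 and 13 for mt-Tf and 24 and 25 for mt-Ti. At 68 and 69 bases both genes are shorter than a read, and mt-Ti overlaps the end of mt-Nd1. The part of reads from neighbouring genes in these counts was not tested. In KO 16 of the 22 tRNAs were tested, with a median of 0.27. The remaining short mRNAs mt-Nd3, mt-Nd4l and mt-Atp8 were not called in any of the 9 comparisons, and at MII their log2 fold changes of KO against WT ranged from -1.22 to -1.11.

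The nuclear genes for the same complexes behaved otherwise. Nuclear subunit genes were taken by the pattern of their symbols, such as Nduf for complex I and Atp5 for complex V. Their place in the complexes was not checked further. Of 84 such genes of complexes I, III, IV and V, 82 were tested, and in WT from GV to MII 62 fell and 0 rose (background 30.5% lower), with a median log2 change of -2.35. The mitochondrial partners had a median of -0.15 in the same libraries. Among those that fell, Atp5g1 (-5.83 ± 0.57, SE), of the membrane ring of ATP synthase, and Ndufc1 (-5.61 ± 0.65), an accessory subunit of complex I, changed most, and Ndufa5 (-1.22 ± 0.46) was among those that changed least (edgeR adjusted p from 7.12e-22 to 0.0272 in these 3). By complex as assigned from the symbols, 33 of 39 tested genes of complex I, 6 of 9 of complex III, 8 of 17 of complex IV and 15 of 17 of complex V were called lower. Leaving out either WT GV library reduced the 62 to 34 or 38, with 14.0% or 13.6% of all genes called lower.

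In KO from GV to MII the nuclear subunits had a median of -1.41 and 8 of 82 were called lower (background 3.28%), the lowest being Ndufb7 (-4.84 ± 0.94, SE) and Ndufb10 (-4.54 ± 0.91), both of complex I. That count ranged from 0 without either KO GV library, when 0.196% or 0.265% of all genes were called lower, to 61 without KO MII replicate 1, when 53.9% were. Between KO and WT at MII the nuclear subunits had a median of 0.79 and 5 were called higher (background 0.501%), Ndufc1 (3.94 ± 1.10), Atp5j2 (3.61 ± 0.74), Cox7c (3.31 ± 0.85), Atp5j (3.11 ± 0.81) and Cox7b (2.92 ± 0.75). The mitochondrial members had a median of -0.71 in that comparison. The 5 calls fell to 1 with TMM scaling (0.131% of all genes called higher) and became 15 in a model of all 12 libraries (1.79%). With median-of-ratios scaling or a replicate block they fell to 0, as did calls higher over all genes. They also depended on single libraries. The median of the nuclear subunits was 0.11 without KO MII replicate 1 (all genes -0.45) and 1.28 without KO MII replicate 2 (all genes 0.70). Library by library, and relative to the mean of WT GV, the medians of the members were 0.27 and -0.42 for WT MII, against -1.15 and -0.55 for KO MII. Those of the nuclear subunits were -2.27 and -2.64 for WT MII, against -0.76 and -2.19 for KO MII. The medians of all genes also differed, at -0.56 and -1.28 for WT MII, against -0.21 and -1.40 for KO MII. With each library's median of all genes subtracted, the nuclear subunits were at -1.71 and -1.36 for WT MII, against -0.55 and -0.79 for KO MII. The members, treated likewise, were at 0.84 and 0.87 for WT MII, against -0.94 and 0.85 for KO MII. On that scale only KO MII replicate 1 lay apart from the WT MII libraries.

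**Figure D5:**
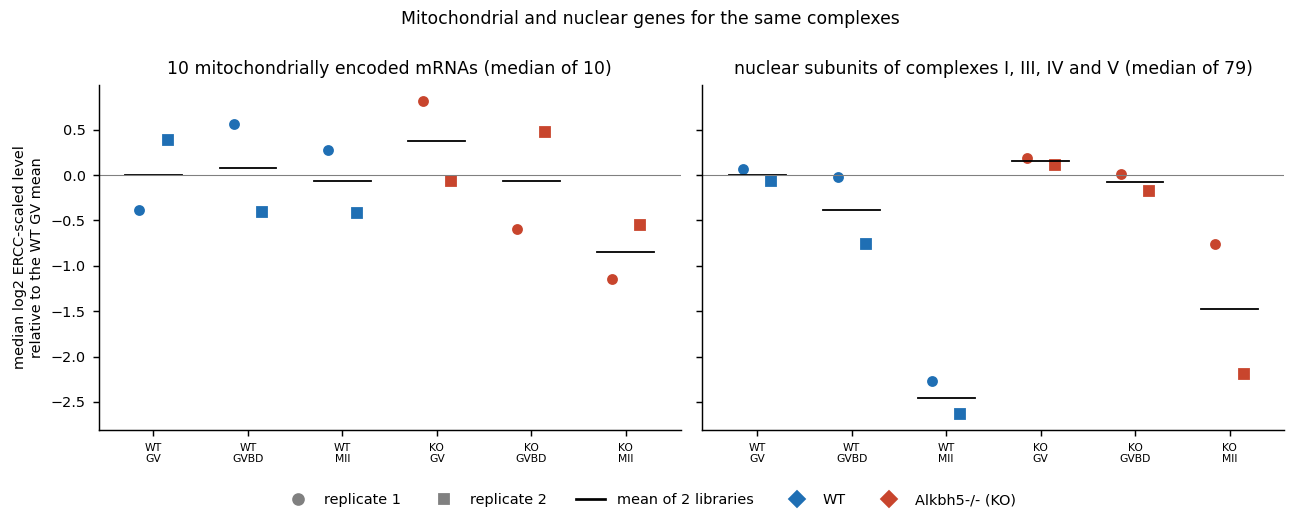
Each point is the median, in 1 library, of log2 spike-in scaled levels relative to the WT GV mean, for the 10 mitochondrial mRNAs (left) and for nuclear subunit genes of the same complexes with a mean of at least 50 counts (right). At WT MII the nuclear genes lie at -2.27 and -2.64 and the mitochondrial mRNAs at 0.27 and -0.42.

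The nuclear genes for mitochondrial DNA upkeep, transcription and RNA handling formed a list of 34. In WT from GV to MII 15 of 33 tested fell and 0 rose (median -1.32, against 30.5% called lower and a median of -1.06 over all genes), with Slirp (-5.60 ± 0.55, SE), an RNA-binding protein that stabilizes mitochondrial mRNAs, the lowest. In KO 4 of 33 fell (median -1.03, against 3.28% and -1.17 over all genes), among them Tefm (-4.22 ± 0.75), the transcription elongation factor of mitochondria, and Slirp (-3.10 ± 0.65). Between KO and WT at MII the median of the list was 0.57. Over all stages 1 of 34 was called higher in KO (background 0.9%), Rnaseh1 (1.18 ± 0.26; edgeR adjusted p = 0.042), a nuclease that removes RNA from RNA-DNA hybrids.

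Genes outside the mitochondrial genome with a mean of at least 50 counts were ranked by likeness to the summed members. Gm numbers, Rik names and identifiers in place of symbols were left out. The chromosome 1 copies, which carry Gm numbers, were thus not ranked. Among the 10644 genes ranked, the 5 closest in spike-in scaled level over the 12 libraries were Lgr4 (Pearson r = 0.84), Wtap (0.83), Lnpep (0.82), Pan3 (0.81) and Kctd9 (0.81). The points share library and spike-in scaling, and Lgr4 (57 to 235 counts) and Kctd9 (51 to 139 counts) were low. These correlations are the highest of all genes ranked, and those of single members with the sum were not computed.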

How the data were processed

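RNA of 12 mouse oocyte libraries was analysed from 1 deposited table of read counts for genes and ERCC sequences, which the authors did not normalize. According to the methods and the submitters' processing notes, the authors trimmed reads (cutadapt 1.9), aligned them to GRCm38/mm10 with the ERCC sequences (HISAT2 2.0.4), kept uniquely mapped reads and ran StringTie 1.3.4d. The counting step, the use of strand and the annotation release are not given in the sources used here. The methods describe cDNA amplified from small pools of oocytes, whereas the labels describe a bulk preparation, so the library protocol is not settled. Symbols matched 52073 of 56691 genes.

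Groups followed the labels. Each comparison was fitted over the whole table by quasi-likelihood in edgeR 4.0.16 under R 4.3.3 (two-sided), with library sizes in proportion to summed ERCC counts and the filterByExpr function on unscaled totals. All 10 members passed this filter in each of the 9 comparisons. Errors of log2 fold changes were derived from the F statistic. The members, the other lists, the rule that all members and only the highest or lowest called genes of other lists are named, and the alternatives were chosen with earlier results of these data known. As alternatives, libraries were scaled by TMM, by median-of-ratios or by ERCC sequences counted at least 10 times per library. Low counts were left in or filtered more strictly, DESeq2 1.42.0 was run, the 12 libraries were fitted jointly, the fold minimum was dropped, replicate numbers were fitted as a block and libraries were omitted singly. The pairing by replicate numbers, and sums with chromosome 1 copies, were examined as well. Medians per library used genes whose mean count reached 50 and a pseudocount of 0.5. Copies were compared with the transcript sequences of GENCODE M21. The steps were tested on simulated data.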

Additional observations from a re-analysis of the deposited data

How the results depend on the processing

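Of 321 recomputed counts of called members, medians and group means, 275 stayed within 1.5 times the count called or within the replicate spread of the median or mean. A mean of 2 libraries stays within their spread by construction when either is left out, so those values could not have moved. Dropping the fold minimum likewise changed no count of called members. The 275 therefore include checks that cannot show stability. Of 726 recomputed log2 fold changes of single members and mt-Rnr2, 611 kept their sign and their side of the threshold, and 69 changed sign. The cause of these changes was not tested, apart from the single libraries named.

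With TMM and median-of-ratios scaling, called members in WT from GV to MII became 2 and 3 (8.47% and 9.94% of all genes called higher). Their median became 0.80 and 0.85 (all genes -0.14 and -0.08). The calls in KO from GV to MII became 0 (3.87% and 3.83% called lower), as did those between KO and WT at MII (0.114% and 0.0114%). The median of the members in KO became 0.25 and 0.27 (all genes -0.14 and -0.13). Under TMM the WT changes of mt-Nd2, mt-Nd4, mt-Nd5, mt-Nd6, mt-Co1, mt-Co3 and mt-Cytb became 0.79, 0.76, 0.62, 0.80, 0.62, 0.53 and 0.92, and under median-of-ratios 0.85, 0.82, 0.68, 0.86, 0.68, 0.59 and 0.98. In KO, mt-Nd1, mt-Nd2, mt-Nd6, mt-Co1, mt-Co2, mt-Co3 and mt-Cytb became 0.36, 0.13, 0.077, 0.43, 1.06, 1.15 and 0.78 under TMM, and 0.39, 0.15, 0.10, 0.45, 1.08, 1.17 and 0.80 under median-of-ratios.

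With DESeq2 the count of called members was 0 in WT from GV to MII (0.202% of all genes called higher) and 1 for the genotype difference (0.303% lower). In a model of all 12 libraries it was 0 between KO and WT at MII (0.279% lower) and 0 in WT from GV to MII (0.101% higher). With no filter on low counts it was 1 at GV (1.76% higher), 1 in KO from GV to GVBD (1.56% lower) and 1 for the genotype difference (0.677% lower). With at least 10 counts in every compared library it was 1 and 1 in the latter pair (0.692% and 0.153% lower). With members summed with their copies it was 0 in WT (0.388% higher) and in KO (3.27% lower) from GV to MII. It was also 0 between KO and WT at MII (0.296% lower).

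The replicate numbers share no stated batch, and the correlation of deviations of same-numbered libraries between genotypes was -0.22 for GV, 0.14 for GVBD and -0.18 for MII, and it was -0.05 to 0.08 between stages. With a replicate block the call at MII was lost (0 members, beside 0.0228% of all genes called lower), and with crossed numbers as a block it was 0 as well (0% of all genes). mt-Atp6 over all stages became 0.0061 with the replicate block. The block by the labelled numbers changed no other count of called members. With crossed numbers, whose use in the other comparisons was chosen after seeing the data although those correlations were not below -0.1, the count became 0 in WT and 0 in KO from GV to MII, and 1 in KO from GV to GVBD. Of all genes, 0.26% were called higher in WT from GV to MII, 1.65% lower in KO from GV to MII and 1.67% lower in KO from GV to GVBD.

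Leaving out each library in turn gave 0 to 1 called members between KO and WT at MII, 0 to 1 in WT from GV to MII, 0 to 5 in KO from GV to GVBD and 0 to 7 in KO from GV to MII. The medians ranged from -0.16 to 0.94 (GV), -0.85 to 0.42 (GVBD) and -1.08 to -0.29 (MII) between KO and WT, -0.54 to 0.28 in WT from GV to MII, -1.04 to 0.20 in KO from GV to GVBD, -1.66 to -0.58 in KO from GV to MII, and -1.58 to -0.53 for the genotype difference. Among single genes whose sign depended on a library, the ranges between KO and WT at MII were -0.60 to 0.077 for mt-Co1 and -0.43 to 0.26 for mt-Co3. In WT from GV to MII they were -0.35 to 0.60 for mt-Nd1, -0.50 to 0.24 for mt-Nd2, -0.67 to 0.56 for mt-Nd4, -0.78 to 0.19 for mt-Nd5, -0.70 to 0.74 for mt-Nd6, -0.76 to 0.18 for mt-Co1, -0.28 to 0.38 for mt-Co2, -0.34 to 0.30 for mt-Cytb, -0.29 to 3.55 for mt-Atp6 and -0.14 to 0.49 for mt-Rnr2. In KO from GV to MII they were -0.80 to 0.085 for mt-Co2 and -0.42 to 0.21 for mt-Co3. Over all stages they were -0.073 to 0.34 for mt-Nd1, -0.27 to 0.15 for mt-Nd2, -0.38 to 0.026 for mt-Nd4, -0.39 to 0.020 for mt-Nd5, -0.24 to 0.14 for mt-Co1 and -1.13 to 0.51 for mt-Atp6. With all rows of the mitochondrial genome in place of the 10 mRNAs, the share of endogenous counts was 0.923%, 0.985% and 1.58% in WT GV, GVBD and MII and 1.02%, 1.12% and 2.11% in KO.

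With 2 libraries per group, and replicates up to 2.37-fold apart, depth does not set the precision; the spread between pools does. Nuclear copies on chromosome 1 limit the values of mt-Co2, mt-Co3, mt-Nd4 and mt-Atp6, and in part those of mt-Co1. mt-Nd2 and mt-Nd5 share stretches of 50 bases with other nuclear genes, whose part in their counts was not tested. The library protocol and the number of oocytes per tube, which the sources give differently, bear on all 10 members.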
